A study of Mus musculus with 10 samples.

Results

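Cholesterol synthesis and its sterol-sensing control were followed through 28 listed genes in primary mouse hepatocytes depleted of 1 of 2 chromatin regulators. The members were taken by gene symbol from array features annotated with exactly 1 gene, and where a gene had several features the one with the highest mean over all libraries was used. Of the 28 genes, 25 were found among the 16401 genes with such a feature. Acat2, Soat1 and Soat2 were not analysed here. A filter that left out the lowest 30 percent of genes by mean signal kept 24 members among 11481 genes tested. The member below it was Npc1l1, the intestinal sterol importer, whose log2 level lay between 6.78 and 7.19 in the 10 libraries. The 24 members that passed comprised 17 enzymes of the pathway, from Hmgcs1 to Dhcr7, and 7 regulators or transport genes.

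Hepatocytes are a main site of cholesterol synthesis in the body. Acetyl units are joined to mevalonate, turned into isoprenoid diphosphates, condensed to squalene, closed to lanosterol, and then trimmed and rearranged to cholesterol. Transcription of most of these enzyme genes is controlled together by the transcription factor encoded by Srebf2, a membrane protein that reaches the nucleus only when sterols are scarce. The escort protein SCAP carries it from the endoplasmic reticulum to the Golgi, and the INSIG proteins hold SCAP back when sterols are plentiful. Insig1 is itself a target gene of the factor, so that its mRNA is often read together with those of the enzymes.

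The cells were primary hepatocytes of male C57BL6/J mice aged 10 weeks kept in culture. Every library came from cells that had been exposed for 72 hours to an adenovirus with a short hairpin RNA, either non-specific (shNS), against Wdr5 (shWDR5) or against Kat2b (shKAT2B). WDR5 is a scaffold subunit of histone methyltransferase complexes and KAT2B is a histone acetyltransferase. Cells then received 100 nM glucagon, a fasting hormone that acts through cyclic AMP, or phosphate-buffered saline (PBS) for 90 minutes. The groups held 2 libraries of shNS PBS, 2 of shNS glucagon, 1 of shWDR5 PBS, 2 of shWDR5 glucagon, 1 of shKAT2B PBS and 2 of shKAT2B glucagon, each pooled from 3 culture dishes. How many animals gave the cells is not stated in the labels, and 1 hairpin name stands for each target. The p-values therefore rest on the spread between these pools, which may be technical. The comparisons ask how loss of either regulator, and glucagon, changed hepatocyte gene expression.

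Values are log2(intensity + 1) of Affymetrix array features. Library medians lay between 282.1 and 298.2 on the linear scale. With arrays, precision is limited by how many libraries there are. Kat2b was lower in the shKAT2B libraries by a log2 difference of -2.70 (adjusted p = 2.76e-06, limma) and Wdr5 was lower in the shWDR5 libraries by -1.74 (adjusted p = 1.34e-05, limma). The libraries also fell into 2 sets that arm and treatment do not account for. The leading component of the residuals of a model with arm and treatment held 78.0% of their variance. Set 1 holds 4 A libraries, namely shNS in PBS and the glucagon libraries of all 3 arms. Set 2 holds the other 6 libraries, 1 of each group. The set was taken from the sign of a library's score on this component. Scores were 0.22 to 0.43 in set 1 and -0.42 to -0.06 in set 2. The lone PBS libraries of shWDR5 (-0.06) and shKAT2B (-0.14) lay nearest the change of sign, so their place in set 2 is the least certain. The labels name no batch, so the sets are a description of the data. Because they were read from the same libraries, p-values of fits that contain the set are too small. The deposited values follow 2-decimal log2 values, so differences are resolved to about 0.01.

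The cholesterol genes followed these sets closely. All 17 enzymes were higher in set 2 than in set 1 in a fit of arm, treatment and set. Single groups could depart from this, as Tm7sf2 with shWDR5 and glucagon read 8.74 in A of set 1 and 8.72 in B of set 2. The log2 differences ran from 0.26 to 0.90 with a median of 0.43. Over all 11481 genes tested the median was -0.07, and 4236 were higher in set 2. Cyp51, the lanosterol demethylase, differed by 0.90, and Idi1, the isomerase of isopentenyl diphosphate, by 0.87. Fdps, which makes farnesyl diphosphate, had the smallest difference among the enzymes at 0.26. Cyp51 read 9.80, 10.79, 9.79 and 10.70 with shNS, 10.44, 9.77 and 10.59 with shWDR5, and 10.45, 9.51 and 10.45 with shKAT2B, here and below each arm in the order PBS then glucagon and A then B. Its 4 libraries of set 1 lay between 9.51 and 9.80 and the 6 of set 2 between 10.44 and 10.79. Idi1 read 10.17, 11.03, 10.03 and 10.96 with shNS, 10.91, 10.29 and 10.98 with shWDR5, and 10.86, 9.73 and 10.81 with shKAT2B, with 9.73 to 10.29 in set 1 and 10.81 to 11.03 in set 2, again without overlap. Relative to each enzyme's own mean, the enzymes of the shNS libraries had median deviations of -0.13 in PBS A and -0.16 in glucagon A, against 0.39 in PBS B and 0.38 in glucagon B. In both depletion arms the glucagon A libraries were again the low ones, at -0.29 with shWDR5 and -0.36 with shKAT2B, while the other libraries of those arms lay between 0.03 and 0.08. All of these are descriptions, since the sets were read from the same arrays over all genes.

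The regulators did not share one pattern across the sets. Insig1 differed between the sets like the enzymes, at 0.64, and Stard4, a sterol carrier between membranes, differed by 0.52. Insig2, the other retention protein, differed by 0.24 and Mylip, a ubiquitin ligase that limits lipoprotein uptake, by 0.25. Srebf2 and Scap, which encode the factor and its escort, had differences of -0.01 and 0.01. Npc1, which exports cholesterol from lysosomes, was the member furthest on the other side, at -0.19. Over the 24 members, 22 were higher in set 2, with a median of 0.36, beside 4236 of all 11481 genes tested. For Idi1 and Fdft1, the members with 2 features each, the second feature was also lower in each A library of shNS and in both depletion glucagon A libraries than in any library of set 2.

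**Figure D1:**
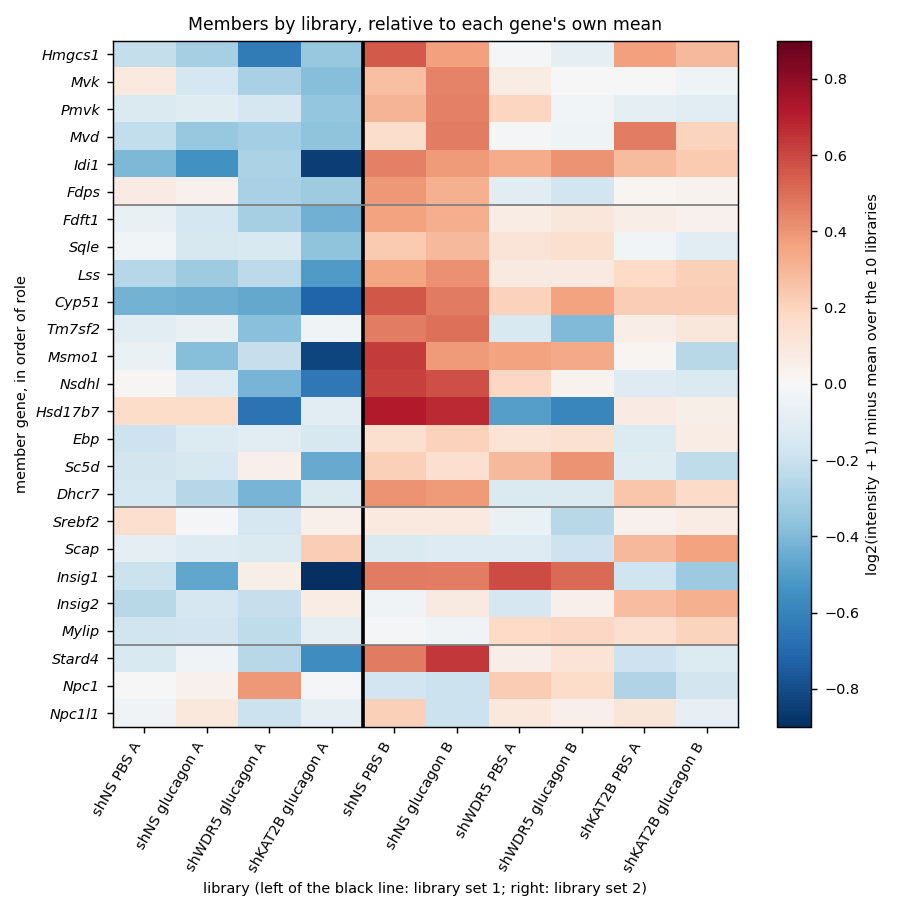
Log2(intensity + 1) of the 25 members found, minus each gene's own mean over the 10 libraries, with libraries of set 1 left of the black line and of set 2 right of it; grey lines part the mevalonate steps, squalene and sterol steps, regulators, and transport genes. The enzyme rows are mostly blue in set 1 and red in the shNS libraries of set 2, while Srebf2 and Scap show no such step.

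The 5' flanks of the members were read because so many enzymes moved together. RefSeq promoter windows of the GRCm38.p6 build, from 250 bases before to 50 after a transcript start, were matched by symbol for 20 of the 25 members. The letters CCAAT, the box bound by the factor NF-Y, were found on either strand in 19 of these 20 members (95%) and in 41.06% of all 27025 genes with a window. The sterol response element written as TCACNCCAC was found in 1 member, Hmgcs1 (5%), against 1.436% of genes, and its shorter form CACCNCAC, which can overlap it, in 2 members (10%), Hmgcs1 and Hsd17b7, against 7.216%. An E-box, CACGTG, was found in 5 members (25%) against 8.093% of genes. The cyclic AMP response element TGACGTCA was in 0 of the 20 members, against 2.031% of genes, and its first letters TGACG were in 10 (50%) against 23.05%. These are matches of letters in 1 window length, and no test was made.

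The 250 bases before the start are shown 5' to 3' on the gene's own strand for 5 members on which the results turn. The members have 26 windows in all, and where a gene has several the first listed is shown. Capitals mark CCAAT, or its reverse complement ATTGG, and the sterol response element TCACNCCAC. Its shorter form is not marked, so the match of Hsd17b7 at position -116 stands in small letters. Hmgcs1, the entry enzyme of the mevalonate steps, holds the sterol response element at position -137 from the start. Nsdhl and Hsd17b7, which act in removal of the ring methyl groups, had the lowest values among the enzymes with shKAT2B and with shWDR5, respectively. Insig1 differed most between the depletion arms, and Scap was the member without a CCAAT letter match and rose with shKAT2B.
Hmgcs1, chr13:119690101-119690350, plus strand: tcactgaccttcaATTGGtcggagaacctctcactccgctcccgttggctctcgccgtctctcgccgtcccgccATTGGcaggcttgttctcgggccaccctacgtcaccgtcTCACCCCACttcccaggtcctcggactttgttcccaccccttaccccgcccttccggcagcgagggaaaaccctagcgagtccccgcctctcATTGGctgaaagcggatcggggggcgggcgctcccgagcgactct
Nsdhl, chrX:72918271-72918520, plus strand: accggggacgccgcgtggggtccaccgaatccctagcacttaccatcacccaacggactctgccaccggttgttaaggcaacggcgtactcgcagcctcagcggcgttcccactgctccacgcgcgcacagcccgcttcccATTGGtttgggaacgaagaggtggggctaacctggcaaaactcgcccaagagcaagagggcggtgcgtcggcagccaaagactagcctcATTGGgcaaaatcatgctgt
Hsd17b7, chr1:169969206-169969455, minus strand: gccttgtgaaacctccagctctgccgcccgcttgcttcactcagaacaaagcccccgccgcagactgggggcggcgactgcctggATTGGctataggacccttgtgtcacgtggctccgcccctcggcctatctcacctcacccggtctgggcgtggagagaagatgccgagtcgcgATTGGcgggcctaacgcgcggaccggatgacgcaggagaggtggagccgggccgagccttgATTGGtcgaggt
Insig1, chr5:28071162-28071411, plus strand: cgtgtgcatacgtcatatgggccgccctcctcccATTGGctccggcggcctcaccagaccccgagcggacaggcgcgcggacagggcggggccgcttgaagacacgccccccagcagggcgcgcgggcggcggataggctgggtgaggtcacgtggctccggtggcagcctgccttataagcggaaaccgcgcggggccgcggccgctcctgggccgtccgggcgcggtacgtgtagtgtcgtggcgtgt
Scap, chr9:110333038-110333287, plus strand: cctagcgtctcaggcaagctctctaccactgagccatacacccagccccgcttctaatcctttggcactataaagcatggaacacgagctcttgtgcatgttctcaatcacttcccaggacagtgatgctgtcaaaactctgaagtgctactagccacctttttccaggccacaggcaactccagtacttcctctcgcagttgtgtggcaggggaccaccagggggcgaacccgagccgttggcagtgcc
Hsd17b7 carries ATTGG at 3 places in this stretch and Nsdhl at 2. Scap, with no capitals, had a set difference of 0.01, and Srebf2, whose window does hold CCAAT, had -0.01. Whether the letter match goes with the movement between sets was not tested.

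Glucagon for 90 minutes moved no member past the threshold over all 10 libraries, with or without the set as a term. In the fit of arm and treatment, limma called 0 of 24 members at an adjusted p below 0.05, against 0.923% of all genes tested, and 0 members had an unadjusted p below 0.05. The members' median log2 difference was -0.10, with 21 of 24 below 0, beside a median of 0.01 over all genes. Of the 4 PBS libraries 3 belong to set 2, where the enzymes are high, against 3 of the 6 glucagon libraries. With the set as a term the members' median was -0.01, beside -0.002 over all genes, and 0 members were called against a background of 3.35%. In set 2 alone, with 1 library per group, 0 members were called against 2.69%. With the replicate letter as a block, 1 member was called, Msmo1, against 2.5% of genes.

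Across members, the set-adjusted glucagon differences lay between -0.19 and 0.13. Msmo1, the methylsterol oxidase, had the lowest value, -0.19 ± 0.06 (SE; adjusted p = 0.105, limma). Its matched differences, taken between glucagon and PBS libraries of the same arm and set, were below 0 in 4 of 4 pairs. Insig2 had 0.11 ± 0.04 (adjusted p = 0.174, limma) and was above 0 in 4 of 4 pairs. For Stard4 the value was 0.13 ± 0.06 (adjusted p = 0.395, limma), also above 0 in 4 of 4 pairs. These 3 were the members with an unadjusted p below 0.05 in that fit, and none passed the adjustment over all 10 libraries. Full agreement of the pairs was not particular to them. Hmgcs1, Nsdhl and Insig1 were also below 0 in 4 of 4 pairs, and Ebp above 0 in 4 of 4. How often such agreement occurs over all genes was not counted, so it is description only. Msmo1 was called without shWDR5 PBS (-0.27, adjusted p = 0.00729, limma) and without shWDR5 glucagon A (-0.20, adjusted p = 0.0357, limma). Insig1, with matched differences from -0.28 to -0.01, had -0.09 ± 0.06 (adjusted p = 0.748, limma).

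**Figure D2:**
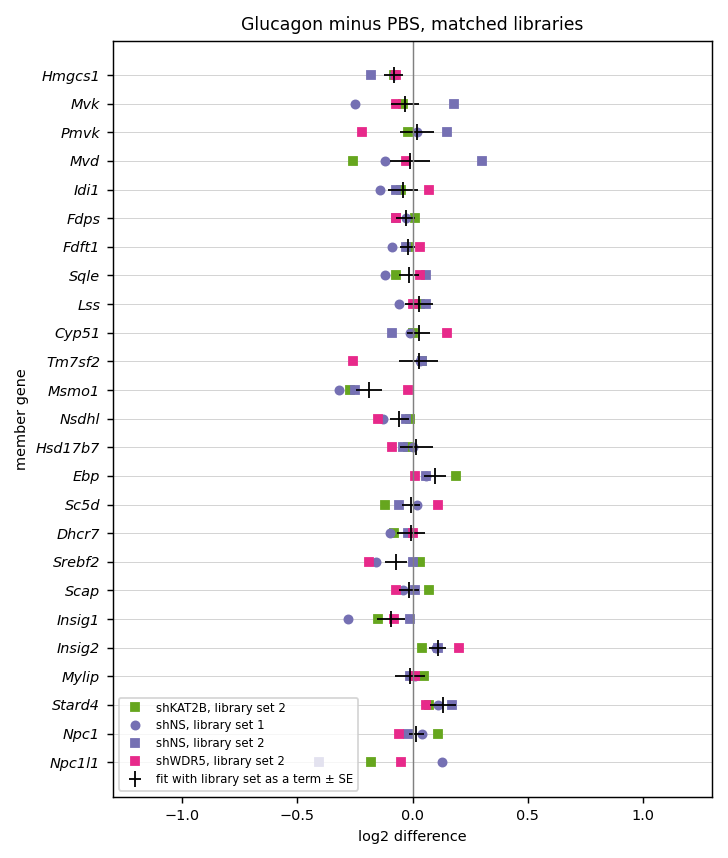
Log2 difference, glucagon minus PBS, of each member between libraries of the same arm and set (coloured points, 4 pairs) with the estimate of the fit that has the library set as a term and its standard error (black). Points lie on both sides of 0 for most members, and the estimates stay between -0.19 and 0.13.

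With shWDR5, Hsd17b7 was lower and the lysosomal exporter was higher. Hsd17b7, the ketosteroid reductase that acts in removal of the methyl groups at the sterol ring, had log2 levels of 10.03 and 10.58 in the shNS PBS libraries A and B, 10.03 and 10.54 in shNS glucagon A and B, 9.37 in shWDR5 PBS, 9.20 and 9.28 in shWDR5 glucagon A and B, 9.94 in shKAT2B PBS, and 9.77 and 9.92 in shKAT2B glucagon A and B. Every shWDR5 library lay below every shNS and every shKAT2B library. The log2 difference from shNS was -0.998 ± 0.15 (a 2.00-fold lower level; SE; adjusted p = 0.00529, limma), and it kept its call when any 1 library was left out. Given the set, it was -1.07 ± 0.08 (adjusted p = 1.33e-06, limma).

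Npc1, which moves cholesterol out of late endosomes and lysosomes, had levels of 12.05 and 11.88 in the shNS PBS libraries A and B, 12.09 and 11.86 in shNS glucagon A and B, 12.28 in shWDR5 PBS, 12.44 and 12.22 in shWDR5 glucagon A and B, 11.78 in shKAT2B PBS, and 12.04 and 11.89 in shKAT2B glucagon A and B. The 3 shWDR5 libraries were the highest of all 10. The difference from shNS was 0.33 ± 0.08 (adjusted p = 0.0395, limma), but without any of 8 of the 10 libraries, left out in turn, it missed the threshold, with an adjusted p up to 0.187. Given the set, it was 0.37 ± 0.04 (adjusted p = 1.48e-05, limma), and the 3 matched differences were close to each other, from 0.35 to 0.40. Hsd17b7 and Npc1 were 2 of 24 members called in the fit without the set, where 10.9% of all genes were called.

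Several further enzymes were lower with shWDR5 once libraries of the same set were compared. In the fit with the set, 13 of 24 members were called, where 36.8% of all genes were. Lower were 10 members, against 18.1% of genes lower, and higher were 3, against 18.8% of genes higher. The median of the members was -0.18, beside 0.0025 over all genes tested. In set 2 alone 14 members were called, against a background of 27.9%. All 3 matched differences were below 0 in 13 of 24 members, a pattern found in 28% of all genes, and all were above 0 in 3. The share of all genes with every matched difference above 0 was not counted.

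Among the mevalonate steps, Hmgcs1 had levels of 10.76, 11.53, 10.68 and 11.35 with shNS, 10.96, 10.35 and 10.89 with shWDR5, and 11.35, 10.64 and 11.27 with shKAT2B. Within set 2 both shWDR5 libraries were below all shNS and shKAT2B libraries, and within set 1 the shWDR5 library was the lowest. Given the set, its difference was -0.44 ± 0.05 (adjusted p = 2.61e-05, limma). For Fdps, the synthase of farnesyl diphosphate, the levels were 11.45, 11.77, 11.42 and 11.70 with shNS, 11.28, 11.09 and 11.21 with shWDR5, and 11.40, 11.06 and 11.41 with shKAT2B, and every shNS library lay above every depletion library. It differed by -0.43 ± 0.05 (adjusted p = 2.05e-05, limma). The mevalonate kinase Mvk gave 9.19, 9.37, 8.94 and 9.55 with shNS, 9.17, 8.81 and 9.10 with shWDR5, and 9.10, 8.72 and 9.06 with shKAT2B, lower in each depletion library than in the shNS libraries of its set. Its difference was -0.29 ± 0.07 (adjusted p = 0.00626, limma), a call that was lost without shNS glucagon B. Pmvk, Mvd and Idi1, the next enzymes in order, had -0.19, -0.22 and 0.04 and were not called. Of the 6 mevalonate enzymes tested, 3 were called lower and 0 higher in the fit with the set, against 18.1% and 18.8% of all genes.

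In the steps from squalene to cholesterol, Tm7sf2, a sterol reductase, had levels of 9.02, 9.58, 9.05 and 9.62 with shNS, 8.98, 8.74 and 8.72 with shWDR5, and 9.18, 9.09 and 9.22 with shKAT2B. The 3 shWDR5 libraries were the lowest of the 10, and the difference was -0.56 ± 0.10 (adjusted p = 0.00081, limma). Nsdhl, the dehydrogenase that works with Msmo1 and Hsd17b7, differed by -0.42 ± 0.05 (adjusted p = 2.98e-05, limma). Levels of Dhcr7, the reductase of the last step, were 9.33, 9.89, 9.23 and 9.87 with shNS, 9.36, 9.07 and 9.36 with shWDR5, and 9.74, 9.36 and 9.66 with shKAT2B, with the shWDR5 libraries lowest in each set. Dhcr7 differed by -0.39 ± 0.07 (adjusted p = 0.000939, limma). Fdft1, squalene synthase, read 11.96, 12.39, 11.87 and 12.36 with shNS, 12.10, 11.73 and 12.13 with shWDR5, and 12.09, 11.60 and 12.07 with shKAT2B, and depletion libraries were below the shNS libraries of their set. With shWDR5 it differed by -0.23 ± 0.04 (adjusted p = 0.00055, limma). Sc5d, the sterol desaturase, was called the other way, at 0.18 ± 0.05 (adjusted p = 0.00805, limma), but not without shNS glucagon B. The remaining 5 enzymes of these steps, Sqle, Lss, Cyp51, Msmo1 and Ebp, had values from -0.17 to -0.02 and were not called. Cyp51 was 0.03 in the fit without the set and -0.23 (adjusted p = 0.0267, limma) in set 2 alone, so its direction depends on how the sets are handled.

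Among the regulators, Srebf2 had levels of 10.35, 10.29, 10.19 and 10.29 with shNS, 10.14, 10.05 and 9.95 with shWDR5, and 10.24, 10.25 and 10.27 with shKAT2B. The 3 shWDR5 libraries were the lowest of the 10. The difference was -0.22 ± 0.06 and missed the threshold without the set (adjusted p = 0.0504, limma). With the set it was -0.22 ± 0.05 (adjusted p = 0.00646, limma), and this call was lost without shNS glucagon B. Insig1 was called higher at 0.22 ± 0.07 with the set (adjusted p = 0.0237, limma). Without shNS glucagon A or shWDR5 glucagon A it was not called, with an adjusted p up to 0.211, and in set 2 alone it was 0.08. Scap and Insig2 had -0.03 and -0.07 with no call. Stard4 had levels of 8.65, 9.26, 8.76 and 9.43 with shNS, 8.85, 8.54 and 8.91 with shWDR5, and 8.60, 8.23 and 8.67 with shKAT2B. In each set the shKAT2B libraries were lowest and those of shWDR5 next. With shWDR5 the difference was -0.37 ± 0.06 (adjusted p = 0.000751, limma).

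With shKAT2B, Scap was higher, while many enzymes and Insig1 were called lower only once the set was taken into account. Scap had levels of 10.59 and 10.54 in the shNS PBS libraries A and B, 10.55 and 10.55 in shNS glucagon A and B, 10.55 in shWDR5 PBS, 10.54 and 10.48 in shWDR5 glucagon A and B, 10.96 in shKAT2B PBS, and 10.89 and 11.03 in shKAT2B glucagon A and B. The 3 shKAT2B libraries lay between 10.89 and 11.03, and the 7 others between 10.48 and 10.59, with no overlap. The difference from shNS was 0.41 ± 0.05 (a 1.32-fold higher level; SE; adjusted p = 0.00171, limma), kept when any 1 library was left out. Scap was the 1 member called in the fit without the set, where 15.6% of all genes were called. With the set as a term its difference was 0.40 ± 0.05 (adjusted p = 2.59e-05, limma).

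The enzymes' fall with shKAT2B was seen when libraries of the same set were compared. In the fit with the set, 15 of 24 members were called, where 41.5% of all genes were. Lower were 13, against 20% of genes lower, and higher were 2, Scap and Insig2, against 21.5% of genes higher. The members' median was -0.25, beside 0.02 over all genes. In set 2 alone 17 members were called, against 37.2% of genes. All 3 matched differences were below 0 in 16 of 24 members, against 29.6% of all genes. They were above 0 in Insig2, Mylip and Scap, a pattern whose share over all genes was not counted. Without the set the members' median was -0.12 and 18 of 24 values were below 0, but the sets then entered both the error and the estimates. The shNS libraries PBS A and glucagon A belong to set 1, while in each depletion arm the glucagon A library alone does. Because the enzymes are lower in set 1, the fit without the set raises their differences from shNS in both depletion arms.

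Nsdhl had levels of 11.56 and 12.16 in the shNS PBS libraries A and B, 11.43 and 12.13 in shNS glucagon A and B, 11.73 in shWDR5 PBS, 11.13 and 11.58 in shWDR5 glucagon A and B, 11.43 in shKAT2B PBS, and 10.90 and 11.42 in shKAT2B glucagon A and B. In each set the shKAT2B libraries were the lowest, and the libraries of shWDR5 lay between them and shNS. With the set its difference from shNS was -0.65 ± 0.05 (a 1.57-fold lower level; adjusted p = 5.42e-07, limma), while without it the value was -0.53 ± 0.22 (adjusted p = 0.142, limma). Msmo1 read 11.28, 11.97, 10.96 and 11.72 with shNS, 11.70, 11.13 and 11.68 with shWDR5, and 11.36, 10.51 and 11.09 with shKAT2B, lowest with shKAT2B in each set. It differed by -0.57 ± 0.06 (adjusted p = 1.57e-05, limma) and Hsd17b7 by -0.47 ± 0.08 (adjusted p = 0.000426, limma). Sc5d was lower by -0.33 ± 0.05 (adjusted p = 0.000102, limma). The squalene epoxidase Sqle read 10.60, 10.86, 10.48 and 10.92 with shNS, 10.74, 10.49 and 10.77 with shWDR5, and 10.60, 10.26 and 10.53 with shKAT2B, also lowest with shKAT2B in each set. Sqle differed by -0.30, Fdft1 by -0.29 and Cyp51 by -0.29, each called and each kept when any 1 library was left out. The sets in these refits were still those read from all 10 libraries. Without the set Sqle, Fdft1 and Cyp51 were not called (adjusted p = 0.270, 0.492 and 0.889, limma). The remaining enzymes of the squalene and sterol steps, Lss, Tm7sf2, Ebp and Dhcr7, had values from -0.21 to -0.06 and were not called.

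In the mevalonate steps 4 of 6 enzymes were called lower with shKAT2B and 0 higher in the fit with the set. Over all genes 20% were called lower and 21.5% higher in that fit. Pmvk, the phosphomevalonate kinase, had levels of 7.43, 7.87, 7.45 and 8.02 with shNS, 7.76, 7.41 and 7.54 with shWDR5, and 7.48, 7.21 and 7.46 with shKAT2B, and its shKAT2B libraries were the lowest of each set. It differed by -0.37 ± 0.08, Mvk by -0.36 ± 0.07, Fdps by -0.33 ± 0.05 and Idi1 by -0.22 ± 0.07. The call of Idi1 (adjusted p = 0.0309, limma) was lost without shNS PBS A, shNS PBS B, shNS glucagon B or shKAT2B glucagon A, with an adjusted p up to 0.231. Hmgcs1 at -0.09 ± 0.05 and Mvd at -0.00098 ± 0.10 were not called. Mvd, the decarboxylase that forms isopentenyl diphosphate, had matched differences from -0.26 to 0.30, so its libraries did not fall on one side. Over all 10 libraries Mvd ranged from 8.26 to 9.08, Lss from 9.57 to 10.49, Ebp, a sterol isomerase, from 9.92 to 10.31 and Mylip from 7.10 to 7.53, and none of these 4 was called over all 10 libraries in a fit of arm and treatment, with or without the set. In set 2 alone Lss, Mvd and Ebp were each called in at least 1 comparison.

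Both INSIG genes were called with shKAT2B, in opposite directions. Insig1 had levels of 10.88 and 11.54 in the shNS PBS libraries A and B, 10.60 and 11.53 in shNS glucagon A and B, 11.66 in shWDR5 PBS, 11.12 and 11.58 in shWDR5 glucagon A and B, 10.89 in shKAT2B PBS, and 10.16 and 10.74 in shKAT2B glucagon A and B. Within set 2 the shKAT2B libraries were the lowest, and the shKAT2B library of set 1 was the lowest of all 10. With the set the difference was -0.63 ± 0.07 (a 1.55-fold lower level; adjusted p = 1.45e-05, limma), and without it -0.49 ± 0.25 (adjusted p = 0.242, limma). Insig2 had levels of 11.26 and 11.48 in the shNS PBS libraries A and B, 11.36 and 11.59 in shNS glucagon A and B, 11.36 in shWDR5 PBS, 11.30 and 11.56 in shWDR5 glucagon A and B, 11.79 in shKAT2B PBS, and 11.58 and 11.83 in shKAT2B glucagon A and B. Its shKAT2B libraries were the highest of their set, at 0.25 ± 0.04 above shNS with the set (adjusted p = 0.000318, limma) and 0.30 ± 0.10 without it (adjusted p = 0.0748, limma). Stard4 was lower by -0.63 ± 0.06 with the set (adjusted p = 7.66e-06, limma). Srebf2, at -0.01 ± 0.05, Npc1, at -0.04 ± 0.04, and Mylip, at 0.15 ± 0.07, were not called.

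**Figure D3:**
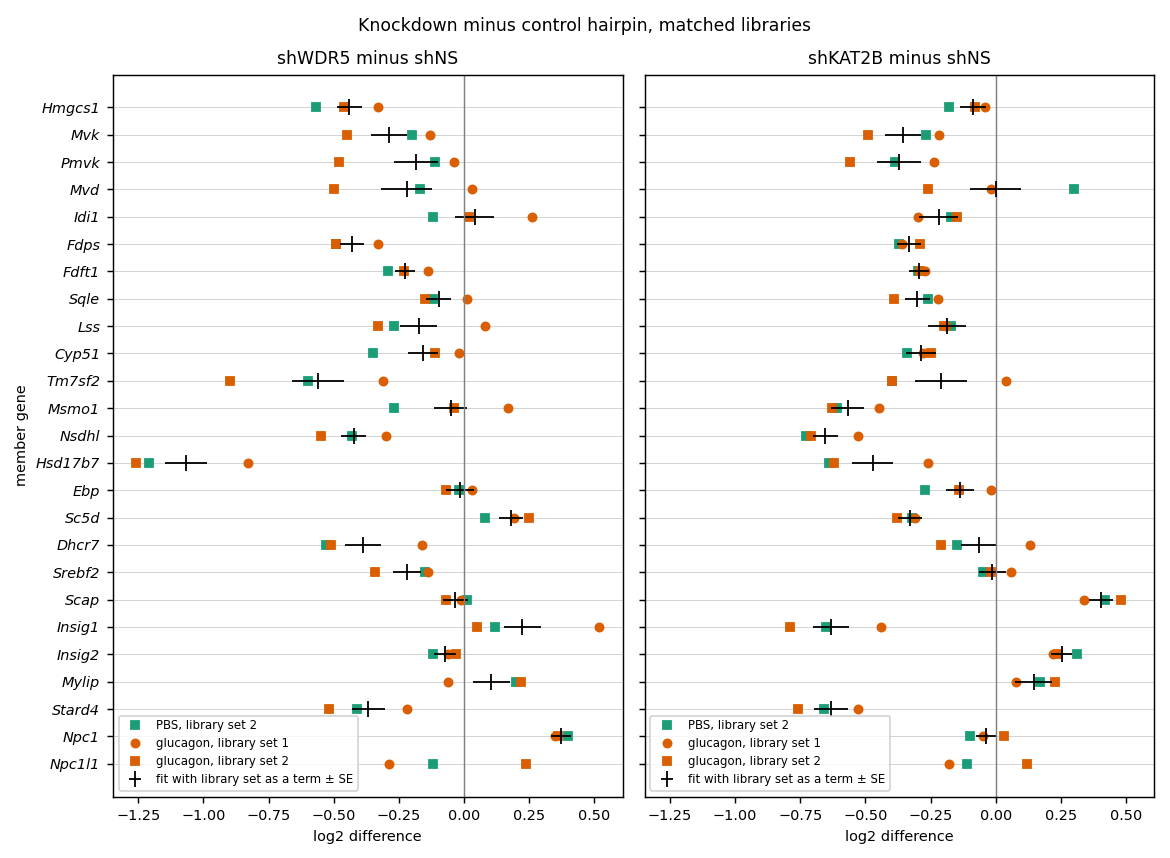
Log2 difference of each member between depletion and shNS libraries of the same treatment and set (coloured points, 3 pairs), with the estimate of the fit that has the library set as a term and its standard error (black); Npc1l1 has no estimate because it was below the filter. Hsd17b7 stands lowest with shWDR5, and with shKAT2B most enzymes, Insig1 and Stard4 lie left of 0 while Scap and Insig2 lie right of it.

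The depletion arms share the shNS libraries, so the difference between them was tested directly. Without the set, 6 of 24 members were called, where 22.7% of all genes were. Hsd17b7 (0.59 ± 0.16), Scap (0.44 ± 0.06) and Srebf2 (0.21 ± 0.06) were higher with shKAT2B than with shWDR5, and Insig1 (-0.86 ± 0.27), Npc1 (-0.41 ± 0.09) and Sc5d (-0.51 ± 0.14) were lower. Scap (adjusted p = 0.00105, limma) was kept without any 1 library. The other five were lost without some: Npc1 (adjusted p = 0.0112) without shWDR5 PBS or shKAT2B PBS, Hsd17b7 (0.026) and Sc5d (0.0261) without any of 5 libraries, Insig1 (0.0492) without any of 7, and Srebf2 (0.0487) without any of the 10.

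Given the set, 15 members differed between the arms, where 50.4% of all genes did. Of these, 7 were higher with shKAT2B, against 25.9% of genes, and 8 were lower, against 24.6%. In set 2 alone 16 were called, against 45.3%. Insig1 differed most, at -0.86 ± 0.07 (adjusted p = 9.65e-07, limma), and 3 of 3 matched differences lay between -0.96 and -0.77. Sc5d differed by -0.51 ± 0.05 (adjusted p = 2.32e-06, limma), with levels of 11.20, 11.58, 11.22 and 11.52 with shNS, 11.66, 11.41 and 11.77 with shWDR5, and 11.26, 10.91 and 11.14 with shKAT2B. Its shWDR5 libraries were the highest of each set and its shKAT2B libraries the lowest. Msmo1 was lower with shKAT2B by -0.52 ± 0.07 (adjusted p = 2.99e-05, limma), and Hmgcs1, Tm7sf2 and Dhcr7 were higher by 0.35, 0.35 and 0.32. Insig2 was higher by 0.33 ± 0.04 (adjusted p = 3.81e-05, limma). For Fdps, Mvk and Fdft1, the differences between the arms, 0.10, -0.07 and -0.07, were not called.

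**Figure D4:**
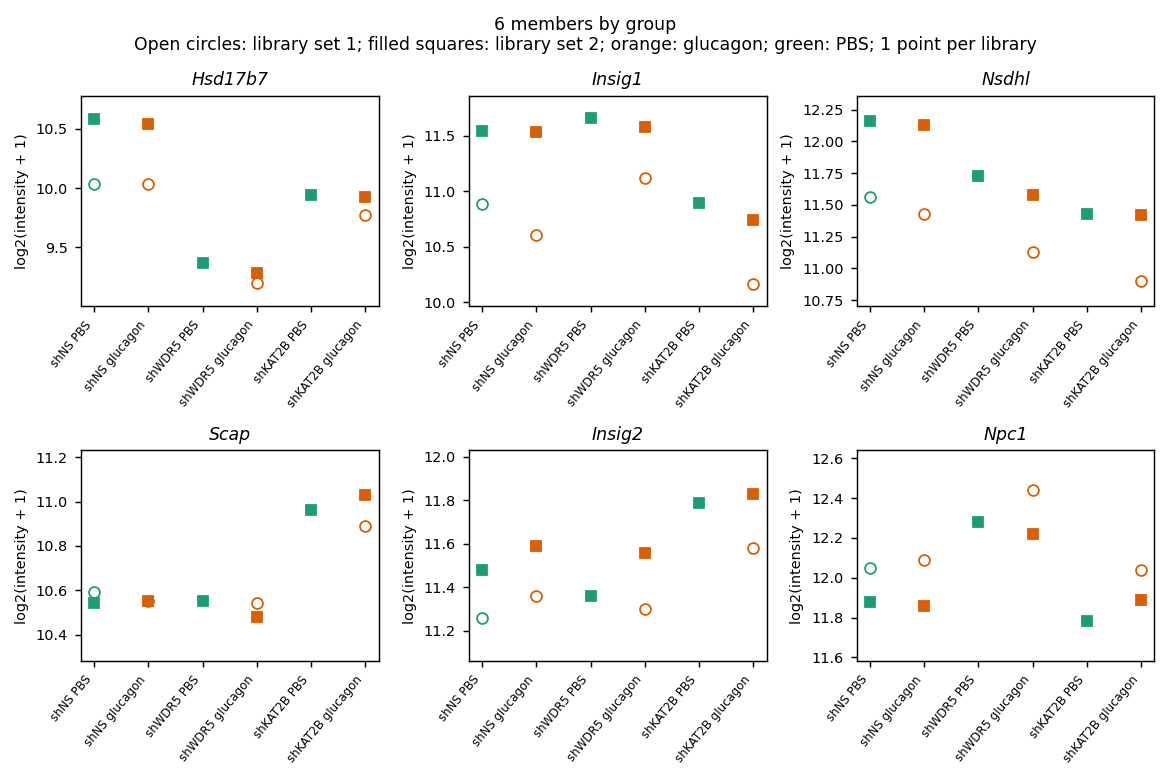
Log2(intensity + 1) of Hsd17b7, Insig1, Nsdhl, Scap, Insig2 and Npc1 in each library by group, with open circles for set 1 and filled squares for set 2; each panel has its own axis, which does not start at 0. The shWDR5 libraries are lowest for Hsd17b7 and highest for Npc1, and the shKAT2B libraries stand apart upward for Scap.

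In a fit of the 6 groups separately without the set, limma called 0 of 24 members in each comparison. The backgrounds of all genes called were low. For glucagon they were 0.192% in shNS, 0.0871% in shWDR5 and 0.061% in shKAT2B, with 0 members at an unadjusted p below 0.05 in each. For shWDR5 they were 0.00871% in PBS and 0.0523% under glucagon, with 1 and 5 members at an unadjusted p below 0.05. For shKAT2B they were 0.505% in PBS and 1.34% under glucagon, with 1 member each at that level. With the set as a term the same fit called 7 members for shWDR5 in PBS (8.81% of all genes) and 12 under glucagon (23.7%), and 12 and 14 for shKAT2B (18.4% and 27.2%). For glucagon it called 0 members in each arm, against 1.93% of genes in shNS, 0.758% in shWDR5 and 0.645% in shKAT2B. With the replicate letter as a block instead, 9 members were called for glucagon in shWDR5 (14.9% of genes) and 17 in shKAT2B (26.3%). In those arms the block puts the PBS A library of set 2 with the glucagon A library of set 1.

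Whether the glucagon response of the members differed in a depletion arm was tested as an interaction, and 0 members were called for shWDR5 (background 0%) and 0 for shKAT2B (background 0%), with 0 at an unadjusted p below 0.05 in either. With the set as a term the interactions again had 0 members called, against backgrounds of 0% and 0.0174%, with 2 and 0 members at an unadjusted p below 0.05.

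Neighbouring pathways were counted from 6 further lists, with limma at an adjusted p below 0.05. Without the set, 4.69% of all genes were higher and 6.17% lower with shWDR5, and 6.65% higher and 8.95% lower with shKAT2B. Given the set, these shares were 18.8% and 18.1% with shWDR5, and 21.5% and 20% with shKAT2B, and the counts of these short lists stand beside them with no test. Of 11 tested genes that process the factor of Srebf2 or degrade sterol-regulated proteins, 3 were higher and 0 lower with shKAT2B without the set, and 4 and 2 with it. Rnf145, a sterol-regulated ubiquitin ligase, was higher by 0.49 ± 0.08 (adjusted p = 0.00431, limma). With shWDR5 the counts were 1 higher and 0 lower without the set, and 3 and 0 with it. Of 10 tested genes of the isoprenoid branches, 0 were higher and 2 lower with shWDR5, and 1 and 3 with the set. One of these was Dhdds, a subunit of the dolichol-forming prenyltransferase, at -0.45 ± 0.10 (adjusted p = 0.0229, limma), a call lost without any of 3 libraries. With shKAT2B the isoprenoid counts were 1 higher and 0 lower, and 3 and 2 with the set.

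Of 16 tested genes of fatty acid synthesis, 0 were higher and 2 lower in each depletion arm. With the set 5 were higher and 6 lower with shWDR5, and 3 higher and 8 lower with shKAT2B, with medians of -0.04 and -0.13. Of 9 tested genes of cholesterol efflux, 0 were higher and 2 lower with shWDR5, and 2 higher and 1 lower with shKAT2B; given the set, 1 and 4 with shWDR5 and 3 and 3 with shKAT2B. Pltp, the phospholipid transfer protein, was higher with shKAT2B by 1.004 ± 0.10 (adjusted p = 0.000495, limma), kept without any 1 library. In the glucagon comparison the efflux list held the 1 call of all 6 lists without the set, Abcg5, which encodes a subunit of a canalicular sterol transporter, at 0.53 ± 0.08 (adjusted p = 0.021, limma). That call was lost without any of 6 libraries and kept with the set (0.50 ± 0.07, adjusted p = 0.00107, limma). Over all genes, 0.923% were called for glucagon without the set and 3.35% with it. Given the set, 2 efflux genes were higher under glucagon. The lists of fatty acid synthesis, bile acids, and factor processing or sterol-regulated degradation then had 1 higher each, and the other lists 0. Of 8 tested bile acid genes, 3 were lower and 0 higher with shKAT2B and 0 were called with shWDR5. Given the set, 4 were lower and 1 higher with shKAT2B, and 2 lower and 0 higher with shWDR5. Cyp39a1, an oxysterol hydroxylase, was lower with shKAT2B by -0.73 ± 0.17 (adjusted p = 0.0212, limma), lost without any of 3 libraries. Of 15 tested genes of sterol trafficking between membranes, 1 was higher and 2 lower with shKAT2B, and 0 were called with shWDR5. Given the set, 3 were higher and 6 lower with shKAT2B, and 1 higher and 3 lower with shWDR5.

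Markers of liver cell types differed in the same contrasts, mostly once the set was a term, and their part in the results was not tested. In bulk RNA, fewer cells of a type and less RNA per cell cannot be told apart. All 8 hepatocyte markers passed the filter on low values. Their summed intensity ran from 44118 to 50320 with shNS, 37293 to 44210 with shWDR5 and 40615 to 43460 with shKAT2B. The lowest value of a single marker was 107.6, with shKAT2B, which is below every library median. Without the set, 3 of 8 were called lower with shKAT2B and 2 with shWDR5. With the set as a term 7 of 8 were called lower with shKAT2B (median -0.41), and 5 lower and 1 higher with shWDR5 (median -0.22). Over all genes 20% were lower and 21.5% higher with shKAT2B in that fit, and 18.1% and 18.8% with shWDR5. In the same fit 9 of 13 tested Kupffer cell and leukocyte markers were higher with shKAT2B (median 0.32) and 6 with shWDR5 (median 0.17). In both arms 0 were lower. Of 10 endothelial markers, 6 and 4 were higher, and of 8 stellate cell and fibroblast markers 5 and 3. Without the set, 0 of the Kupffer cell, leukocyte, stellate cell and fibroblast markers were called in either arm. The endothelial list then had 1 higher with shKAT2B and 0 called with shWDR5. Of 3 tested cholangiocyte markers, 1 was lower with shKAT2B and 2 with shWDR5, with or without the set. The Kupffer cell and leukocyte markers summed to 6733 to 8659 in set 1 and to 10776 to 15647 in set 2, without overlap, and the endothelial markers to 3541 to 4077 and 4815 to 6584. Stellate cell and fibroblast markers went the other way, with 8289 to 8654 in set 1 and 5553 to 6374 in set 2. Between the sets, hepatocyte markers had a median difference of 0.25, higher in set 2, and cholangiocyte markers -0.40, beside -0.07 over all genes. Their sums overlapped between the sets. The sets that differ in the enzymes thus also differ in markers of hepatocytes and of other cells.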

How the data were processed

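RNA of 10 libraries of primary mouse hepatocytes was measured on Affymetrix arrays. The authors deposited a table of 26913 features with intensity on a linear scale (4.47 to 22694), per the file headers and values. Per the submitters' processing notes the software was Affymetrix Expression Console 1.1.1; how it normalized the arrays is not stated in what was used here. Features with 1 gene symbol numbered 17873, with several 1128 and with none 7912, and 17815 matched a RefSeq gene identifier.

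Values were taken as log2(intensity + 1). The feature with the highest mean was used per gene, and the lowest 30 percent of 16401 genes were left out. Differences over arm and treatment, and over the 6 groups, were fitted on all 11481 genes with limma 3.58.1 in R 4.3.3 (lmFit, eBayes with trend), two-sided, with Benjamini-Hochberg adjustment over those genes. Calls were made at adjusted p under 0.05, and errors after ± are standard errors. Groups with 1 library were assumed to vary like the others, and the fits were tested on simulated data. The library set is the sign of the first component of the residuals, and it was used as a term, and in set 2 alone, beside the fit without it. Matched differences are between libraries of the same set. In fits with the set that left out a library, the sets stayed those read from all 10 libraries.

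Members called in a comparison are given with every library's value, the others by range. From each further list up to 4 called genes with the largest difference could be named, and Kat2b and Wdr5 as targets. The members and lists were chosen with earlier results of these data known. Other settings were quantile or median normalization, no filter or a filter of 50 percent, the mean of features, no trend, a pseudocount of 16 or none, the replicate letter as a block, the arms compared alone, and leaving out each library in turn. Tables used pandas 2.3.3 and numpy 2.4.6 in Python 3.11.15, and figures matplotlib 3.10.9.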

Additional observations from a re-analysis of the deposited data

How the results depend on the processing

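The numbers of members called by limma changed with the handling of the library sets and with the replicate letter. For shWDR5 against shNS, 2 members were called without the set, 13 with it, 14 in set 2 alone, 1 without the trend and 1 with the libraries of the compared arms alone; leaving out each library gave 1 to 4. For shKAT2B against shNS, 1 was called, 15 with the set and 17 in set 2 alone, and 1 to 2 with a library left out. Between the arms, 6 were called, 15 with the set and 16 in set 2 alone, and 1 to 6 with a library left out. In the 6-group fit, where 0 were called, the set as a term gave 7 for shWDR5 in PBS (8.81% of all genes), 12 under glucagon (23.7%), and 12 and 14 for shKAT2B (18.4% and 27.2%). The glucagon count with the set was 0, and 0 to 1 with a library left out. Cyp51 with shWDR5 turned from 0.03 to -0.23 in set 2 alone.

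With the letter A or B as a replicate block, 1 member was called for glucagon (2.5% of all genes), 7 for shWDR5 (26.7%), 8 for shKAT2B (29.6%) and 10 between the arms (36%). In the 6-group fit the replicate block gave 9 and 17 for glucagon in shWDR5 and in shKAT2B (14.9% and 26.3% of genes). It gave 9 and 12 for shWDR5 in PBS and under glucagon (30.6% and 23.7%), 10 and 14 for shKAT2B (37.1% and 27.2%), and 5 and 12 for the interactions (4.75% and 12.1%). The differences A minus B correlated between the 4 groups with both letters at 0.72 to 0.84, but the lone PBS A libraries of the depletion arms lie in set 2, with the B libraries, so the letters share only a number with the sets there.

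Each gene's value in each setting was set against the fit without the library set or the fit with it, for members and the named genes outside them. Of 3262 such single-gene values, 2904 kept their direction and side of the threshold. That number includes values uncalled in both settings, so it does not show how firm the calls are. A further 163 changed sign without being called in either setting, 120 passed the threshold anew, 74 no longer passed and 1 called value turned. The cause of these changes was not tested beyond the sets. The 2 PBS libraries of the depletion arms have no partner, and without one its arm rests on glucagon-treated cells.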
